A study of Homo sapiens with 15 samples.

Results

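The 39 genes of the 4 human HOX clusters were followed from undifferentiated stem cells to retinal organoids (ROs) and to glial cultures grown from them. Members were taken by symbol, as every gene named HOXA, HOXB, HOXC or HOXD with a number, and all 39 were listed among the 19684 genes of the deposited tables. They comprise 11 HOXA, 10 HOXB, 9 HOXC and 9 HOXD genes. By position in the cluster, 8 belong to the anterior paralogs (numbers 1 to 3), 15 to the central ones (4 to 8) and 16 to the posterior ones (9 to 13). The 15 poly(A) RNA-seq libraries all come from BC1-GFP, a single human induced pluripotent stem cell (hiPSC) line that carries GFP and is labelled wild type, with 3 libraries in each of 5 groups. These are undifferentiated hiPSCs kept on Matrigel in mTeSR1 medium, neural retina (NR) layers cut from ROs 70 days (D70-ROs) or 150 days (D150-ROs) after induction, and induced Müller glial cells (iMGCs) that were dissociated from NR layers of D150-ROs, plated on Matrigel with DMEM and fetal bovine serum, and collected on the fifth day of passage 1 (P1 iMGCs) or passage 5 (P5 iMGCs). RO medium contained B27 without vitamin A and later serum and taurine, and no retinoic acid is named in it. Between the 2 RO ages N2 took the place of B27, so this supplement changes together with age. The labels name no drug and no further genetic change in any group, and several ROs were pooled in each experiment. The sample descriptions give 3 independent experiments per group and the description of the whole series gives 2 for hiPSCs and ROs, so p-values measure the spread between these libraries, which may be partly technical.

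HOX genes encode homeodomain transcription factors that give cells their position along the head to tail axis. In each cluster the genes lie in the order in which they are used: low-numbered genes at the 3′ end are switched on first and reach the hindbrain, and high-numbered genes at the 5′ end act in the lower trunk and limbs. Polycomb complexes keep the clusters silent in cells that do not use them, and retinoic acid opens them from the 3′ end. Forebrain, and the retina that grows out of it, forms in front of the HOX domain, so the question asked of these libraries is whether ROs and the cultures made from them carry HOX transcripts.

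HOX transcripts were at or near the counting limit in every group. None of the 39 members reached 1 FPKM (fragments scaled for transcript length and for mapped reads) in any of the 15 libraries, a level that 73.0% of all genes reached in at least 1 library. The highest value of any member was 0.41 FPKM, for HOXB8 in D150-RO replicate 2. A total of 11 members (28.2%) had 0 counts in all 15 libraries, against 8.24% of all genes. Of the 585 member values, 518 were 0 and 35 were a single count. Only HOXB13 had 10 counts or more in a library, 1 of 39 members (2.56%) against 79.9% of all genes. Taking at least 10 counts in at least 2 of 3 libraries as detected, 1 member was detected in hiPSCs and 0 in each of the other 4 groups, while 64.3% to 71.1% of all genes were detected per group.

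**Figure D1:**
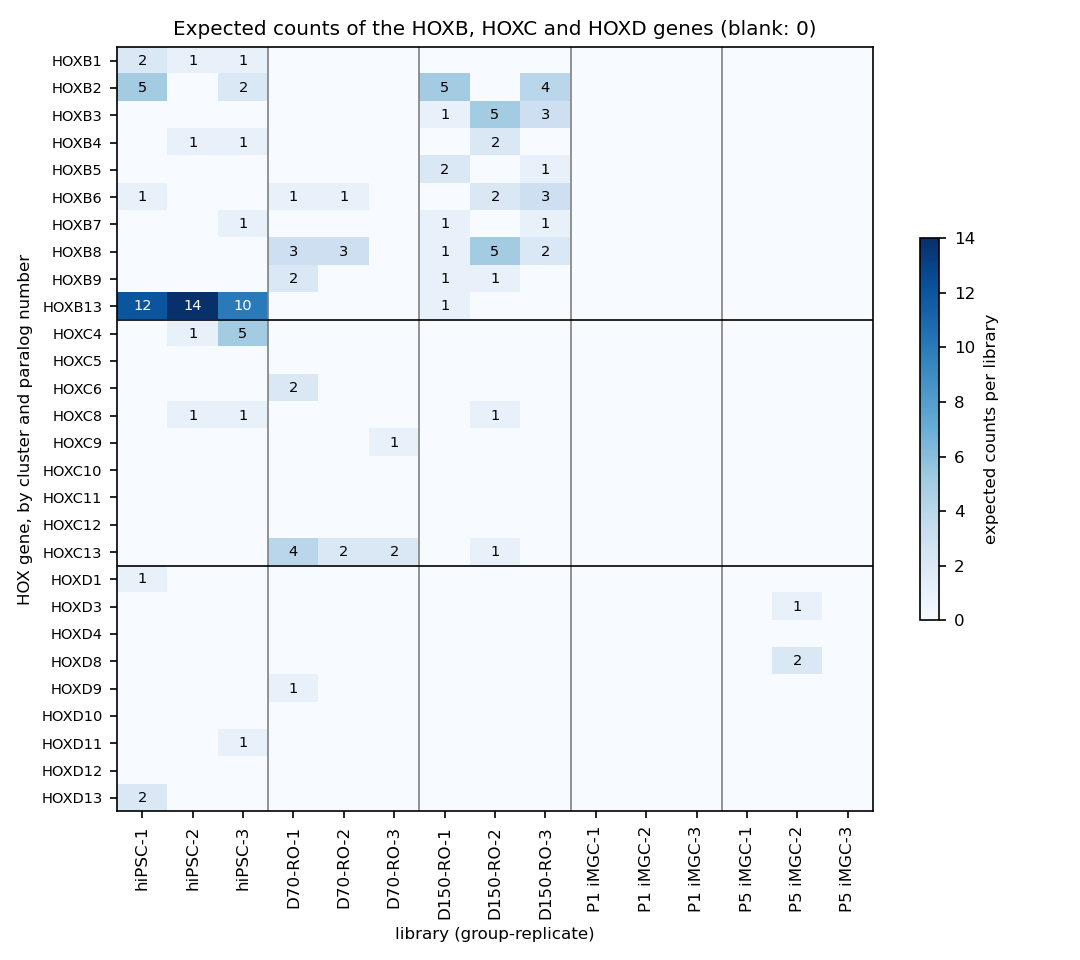
Expected counts of each HOXB, HOXC and HOXD gene (rows, by cluster and paralog number) in each of the 15 libraries (columns), with colour from 0 to 14 counts and the count printed where it is above 0. HOXB13 in the 3 hiPSC libraries holds the only values of 10 or more, D150-ROs have scattered counts along HOXB, and the HOXB and HOXC rows are blank in all 6 iMGC libraries.

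Depth sets what these zeros mean. Library totals ran from 11349600 to 20398755 counts with D70-RO replicate 2 the shallowest, and 3 counts over the 3 libraries of a group, the upper limit that a count of 0 allows, correspond to 0.0505 to 0.0622 CPM (counts in each 1e+06 counts of the library). At 1 FPKM a member of median transcript length would have given 24.5 to 30.2 counts in a library of the group's average depth. These limits cover counting error only. Whether reads were counted by strand is not given in the sources used here, and many members overlap a neighbour or an antisense gene, among them HOXB2 with HOXB-AS1, HOXB3 with HOXB4 to HOXB6, and HOXC4 with HOXC5 and HOXC6, so single counts at these genes are uncertain in their gene of origin. FPKM also depends on library depth and on the transcript length used: 3 counts of HOXB8 gave 0.08 FPKM in D70-RO replicate 1 (19722949 counts in all) and 0.23 in replicate 2 (11349600). Counts are therefore given first. Members other than HOXB13 are named below although their values had been seen, because each had few counts.

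The labels were checked against defining markers. The pluripotency markers POU5F1, NANOG, LIN28A and TDGF1 lay at 41.9 to 2030 FPKM (group means) in hiPSCs and at no more than 4.2 in the other groups. All 5 neural retina markers, CRX, RCVRN, RAX and PAX6 among them, were above 7 FPKM in ROs. In P1 iMGCs PAX6 was at 30.7 FPKM and the other 4 were at 0. Of 6 Müller glia markers, VIM stood at 2160 FPKM in P1 iMGCs and 2860 in P5 iMGCs, while RLBP1, the retinoid-binding protein of mature Müller glia, fell from 33.5 ± 3.66 FPKM (SD, n = 3) in D150-ROs to 0 in P1 iMGCs and 0.03 in P5 iMGCs. Of the 6, 4 were called lower in P1 iMGCs than in D150-ROs and 2 higher (adjusted p under 0.05 and 2-fold), beside 26.0% and 20.5% of all genes tested. SLC1A3 went from 28.0 to 0.373 FPKM, SOX9 from 42.6 to 5.21 and GLUL from 100 to 13.4, while APOE went from 13.6 to 37.2. The iMGC libraries therefore lacked, or held less of, most of the Müller glia list.

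In hiPSCs, HOX counts were led by 1 posterior gene. HOXB13 (chr17:48724763-48729178, minus strand, GENCODE 29 on GRCh38), the last gene at the 5′ end of its cluster and known for its part in the prostate and hindgut, had 12, 14 and 10 counts in the 3 hiPSC libraries (0.17, 0.21 and 0.14 FPKM). It had 0 counts in all 3 D70-RO libraries, 1, 0 and 0 in the D150-RO libraries, and 0 in all 6 iMGC libraries. All hiPSC libraries thus lay above all others. It made up 36 of the 65 HOX counts in hiPSCs, and 13 of 39 members had any count there. HOXB1, the most 3′ gene of that cluster and a hindbrain segment gene, had 2, 1 and 1 counts in hiPSCs and 0 in every other library. HOXB2, a target of Krox20 in the hindbrain, had 5, 0 and 2 counts, and HOXC4 had 0, 1 and 5, of which 5 came from 1 library. The other 9 members seen in hiPSCs had 1 or 2 counts each over the 3 libraries.

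HOXB13 was the only member that passed the filter for testing, at least 10 counts in at least 3 of the libraries compared, and it did so only in comparisons with hiPSCs and only through the hiPSC libraries, so that it had to differ. By counts, the ratio of D70-ROs to hiPSCs was 0 with an upper 95% counting limit of 0.131, and the ratio of D150-ROs to hiPSCs was 0.0342 with a 95% counting interval of 0.000843 to 0.203. The quasi-likelihood test of edgeR, adjusted by Benjamini-Hochberg over all genes tested, gave a log2 fold change of −6.55 (SE 1.08, adjusted p = 0.000448) for D70-ROs and −4.78 (SE 0.83, adjusted p = 0.000138) for D150-ROs, both against the same 3 hiPSC libraries. That is 1 member called lower in each comparison, where 22.5% of 14475 genes tested were called lower in D70-ROs and 23.2% higher, and 29.7% of 14697 genes were called lower in D150-ROs and 30.3% higher. Leaving out any 1 hiPSC library removed HOXB13 from the test, because only 2 libraries then held 10 counts. A fitted fold change against a group of zeros depends on the prior count and is no bound.

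Of the genes around HOXB13, PRAC1, PRAC2 and TTLL6 were also highest in hiPSCs, and HOXB9 was not. PRAC1 and PRAC2, small genes named for their expression in prostate and colon, are the 2 genes of the tables that lie between HOXB9 and HOXB13, and were looked at after their values had been seen. PRAC1 had 7, 8 and 6 counts in the hiPSC libraries and PRAC2 had 7, 12 and 15, with FPKM from 0.6 to 1.27 over the 2 genes. Both had 0 counts in all 12 other libraries. HOXB9 on the other side had no count in hiPSCs. It had 2, 0 and 0 counts at day 70 and 1, 1 and 0 at day 150. TTLL6, a tubulin glutamylase gene next to HOXB13 outside the cluster, had a mean of 1.39 ± 0.35 FPKM (SD, n = 3) in hiPSCs against 0.397 at day 70 and 0.113 at day 150, and was called lower in both RO groups against hiPSCs (log2 fold changes −2.14, SE 0.298, and −4.15, SE 0.338).

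**Figure D2:**
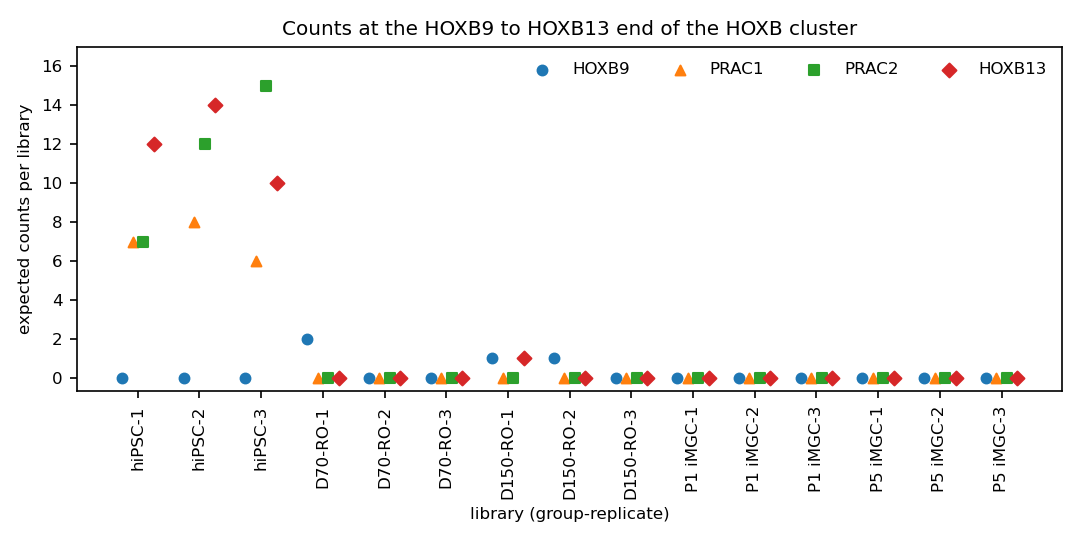
Expected counts per library of HOXB9, PRAC1, PRAC2 and HOXB13, the 4 genes at the 5′ end of the HOXB cluster, with 1 point a gene and library. PRAC1, PRAC2 and HOXB13 lie between 6 and 15 counts in the 3 hiPSC libraries and at 0 or 1 in all others.

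HOXB1 was the only member with a count in every library of a group whose start site is in the RefSeq promoter table, and its 250 bases before the start are shown for that reason (GRCh38.p14, chr17:48531012-48531261, minus strand). Capitals mark TGATNNAT, a site type bound by PBX and HOX proteins together, found once, 125 bases before the start.
HOXB1: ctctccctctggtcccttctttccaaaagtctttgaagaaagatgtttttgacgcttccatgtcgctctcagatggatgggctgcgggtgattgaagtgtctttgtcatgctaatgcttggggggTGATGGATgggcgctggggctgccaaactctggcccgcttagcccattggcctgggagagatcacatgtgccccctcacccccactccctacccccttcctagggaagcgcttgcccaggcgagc
The promoter table held 27 windows of 300 bases for 20 of the 39 members. Among those not in it were HOXA5, HOXB2 to HOXB9, HOXB13, HOXC6, HOXC8 to HOXC13 and HOXD9. TGATNNAT, searched on both strands, was in 3 of the 27 HOX windows (11.1%) and in 7.4% of all 35116 windows. TTTATNG, a posterior HOX site type, was in 25.9% against 9.73%, and AGGTCA, a sequence that retinoic acid receptors bind in pairs, in 0 against 13.8%. HOX windows had a median CpG observed over expected ratio of 0.849 against 0.579 over all windows, with similar GC content (58.0% and 58.7%). Several windows belong to the same gene, and matches are descriptions only.

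In D70-ROs, 9 members had a count, 30 counts in all (0.611 CPM, 95% counting interval 0.412 to 0.872). HOXC13, a posterior gene known for hair and nail, had 4, 2 and 2 counts, the only member with a count in all 3 libraries, against 0 in hiPSCs and 0, 1 and 0 in D150-ROs. HOXB8 had 3, 3 and 0. By library the sums were 17, 6 and 7 counts, so 17 of the 30 came from replicate 1, the deepest D70-RO library.

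D150-ROs held 57 HOX counts over 14 members (1.18 CPM, interval 0.895 to 1.53), spread as 19, 20 and 18 over the libraries. This level lies beside that of hiPSCs (65 counts, 1.09 CPM, interval 0.844 to 1.39), with another split by position. Posterior members had 41 counts in hiPSCs and 5 in D150-ROs, of which HOXB13 alone gave 36 and 1. Anterior members had 12 and 30. HOXB members gave 41 of the 57 counts, and 9 of the 10 had at least 1, from HOXB2 to HOXB13 without HOXB1. HOXB3 had 1, 5 and 3 counts, HOXB8 1, 5 and 2, HOXB2 5, 0 and 4, and HOXB6 0, 2 and 3. HOXD members had 0 counts. Against 0 counts in hiPSCs, the lower 95% counting limit of the ratio of D150-ROs to hiPSCs was 2.43 for HOXB3 (9 counts) and 2.1 for HOXB8 (8 counts). Both were picked after their counts were seen, so limits above 1 are partly set by that choice and are no test. The limits also leave out the spread between libraries.

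**Figure D3:**
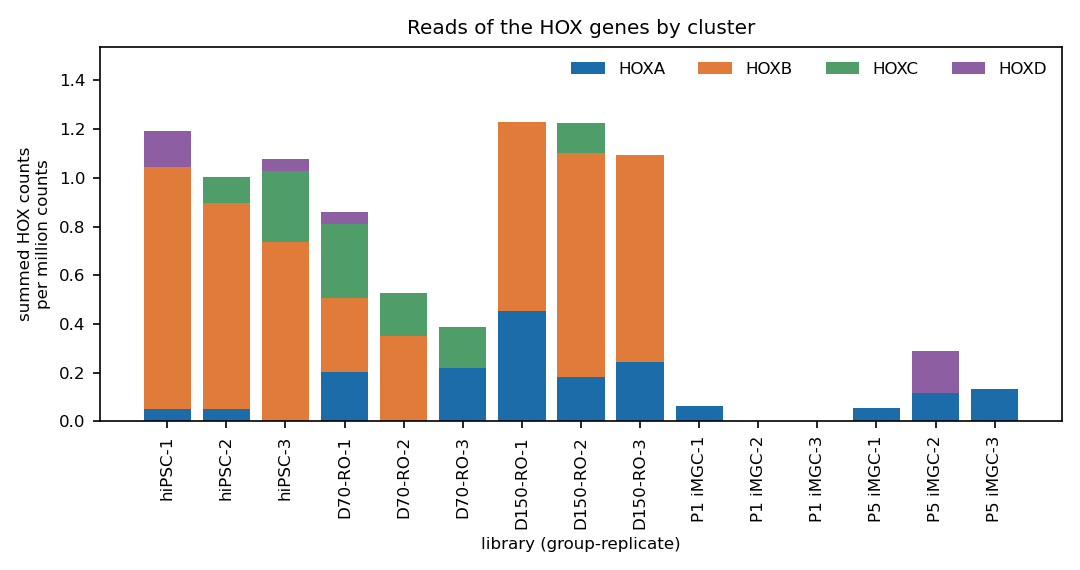
Summed HOX counts in CPM in each of the 15 libraries, stacked by cluster. hiPSCs and D150-ROs reach about the same height, with HOXB the larger part, D70-ROs lie lower and iMGCs lowest, and P1 iMGC replicates 2 and 3 have no HOX count.

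Between D150-ROs and D70-ROs no member passed the count filter, so none could be called where 17.4% of 14121 genes were called higher in D150-ROs and 17.3% lower. HOXB2 and HOXB3 both had 9 counts in D150-ROs and 0 in D70-ROs, with a lower 95% counting limit of the ratio of 2.01, although HOXB2 had none in D150-RO replicate 2. For HOXB8 the interval spanned 1 (8 and 6 counts, ratio 1.36, interval 0.413 to 4.75). HOXC13 went the other way (1 and 8 counts, ratio 0.127, interval 0.00287 to 0.949). These members too were picked after their counts were seen, and the intervals leave out the spread between libraries.

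The iMGC libraries held almost no HOX counts. P1 iMGCs had 1 count in all, of HOXA13, for 0.0199 CPM (interval 0.000505 to 0.111). P5 iMGCs had 8 counts (0.16 CPM, interval 0.069 to 0.315), as 1, 5 and 2 per library. They came from 5 members, HOXA5, HOXA9, HOXA10, HOXD3 and HOXD8, each with at most 2 counts in a library, and HOXA10 with 0, 2 and 1 was the only one seen in more than 1. All 19 HOXB and HOXC members were at 0 in all 6 iMGC libraries. For HOXB2 and HOXB3, with 0 counts in P1 iMGCs and 9 in D150-ROs, the upper 95% counting limit of the ratio was 0.488. It is scaled by library totals, not by the normalization factors of the edgeR fits, and a limit with those factors was not computed. Both genes were again picked after their counts were seen. No member passed the filter against D150-ROs, where 20.5% of 14125 genes were called higher in P1 iMGCs and 26.0% lower, nor between passages, where 2.65% of 12783 genes were called higher in P5 iMGCs and 1.83% lower. Genes with any count were also fewer in iMGCs, 79.4% and 79.7% of all genes against 84.3% to 85.6% in the other groups, and whether this has a part in the HOX counts was not tested. The iMGC values come from a separate deposited table, and the groups cannot be told apart from any sequencing batch that runs with them. The series description names 2 sequencing companies and says that batches were corrected, and it does not tie either to single libraries or values.

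When every gene with a count was tested instead, calls rested on very few reads. In D70-ROs against hiPSCs 21 members were tested and 2 called, HOXB13 lower and HOXC13 higher, where 41.7% of all genes tested in that way were called. In D150-ROs against hiPSCs 4 of 21 were called, among them HOXB13 lower and HOXB3 and HOXB8 higher, beside 54.4% of all genes. HOXB3 alone was called between D150-ROs and D70-ROs (1 of 18, beside 30.7%), and HOXB3 was among those called lower in P1 iMGCs against D150-ROs (2 of 15, beside 42.4%). Between P5 and P1 iMGCs 0 of 6 were called, 0 had an unadjusted p under 0.05, and 4.29% of all genes were called. In each comparison the share of members called was below the share of all genes.

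Most chromosomal neighbours of the clusters were expressed. For each cluster the 3 nearest genes of the tables on either side were taken, 24 in all. The counts of called genes given for this and the following lists stand beside the shares of all genes given above for each comparison. Of the neighbours, 19 or 20 per group had a mean of at least 1 FPKM. The median of the 24 means ranged from 14.4 FPKM in hiPSCs to 32.3 in D150-ROs. Over all genes the median was 3.08 FPKM in hiPSCs and 5.15 in D150-ROs, and the median HOX gene was at 0 in every group. The neighbours lie 8978 to 1036688 bases from the outermost HOX gene. CBX1, 427005 bases from HOXB, and CBX3, 879637 bases from HOXA, both genes of heterochromatin proteins, ranged from 35.5 to 134 FPKM and from 57.7 to 106 FPKM over the group means. Some of the nearest genes were low, with SKAP2 at no more than 2.66 FPKM in any group mean, TTLL6 1.39 and SKAP1 0.0567. On other sides the nearest were higher, with CALCOCO1 at no less than 11.1 FPKM, SMUG1 7.25 and MTX2 15.7. EVX1 and EVX2, the homeobox genes next to HOXA13 and HOXD13 that share the regulation of the clusters, were also low. Against hiPSCs 5 of 21 neighbours were called higher and 2 lower at day 70, then 7 and 6 at day 150. EVX1 had 3 counts in hiPSCs and 0 elsewhere, and EVX2 had 14 counts in D150-ROs (0.07 ± 0.0458 FPKM) and 0 elsewhere.

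HOX cofactors lay far above the HOX genes themselves. PBX, MEIS and PKNOX genes encode the TALE homeodomain proteins that bind DNA with HOX proteins and also work without them. All 9 had a mean of at least 1 FPKM in both RO groups, 6 in hiPSCs and 8 in each iMGC group. MEIS1 ranged from 0.07 to 0.27 FPKM over the hiPSC libraries, from 40.84 to 52.27 at day 70 (log2 fold change 7.72, SE 0.259) and from 43.13 to 48.71 at day 150. MEIS2 went from 0.31 ± 0.131 FPKM to 12.3 ± 1.53 and 55.7 ± 2.01 over the same groups. Against hiPSCs 4 of 9 cofactors were called higher and 0 lower at day 70, then 2 and 0 at day 150. PBX2 was above 35 FPKM in hiPSCs and ROs alike. In P1 iMGCs against D150-ROs 4 were called lower (PBX4, MEIS1 and MEIS2 among them) and PKNOX2 higher. Between passages 0 of 8 were called.

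**Figure D4:**
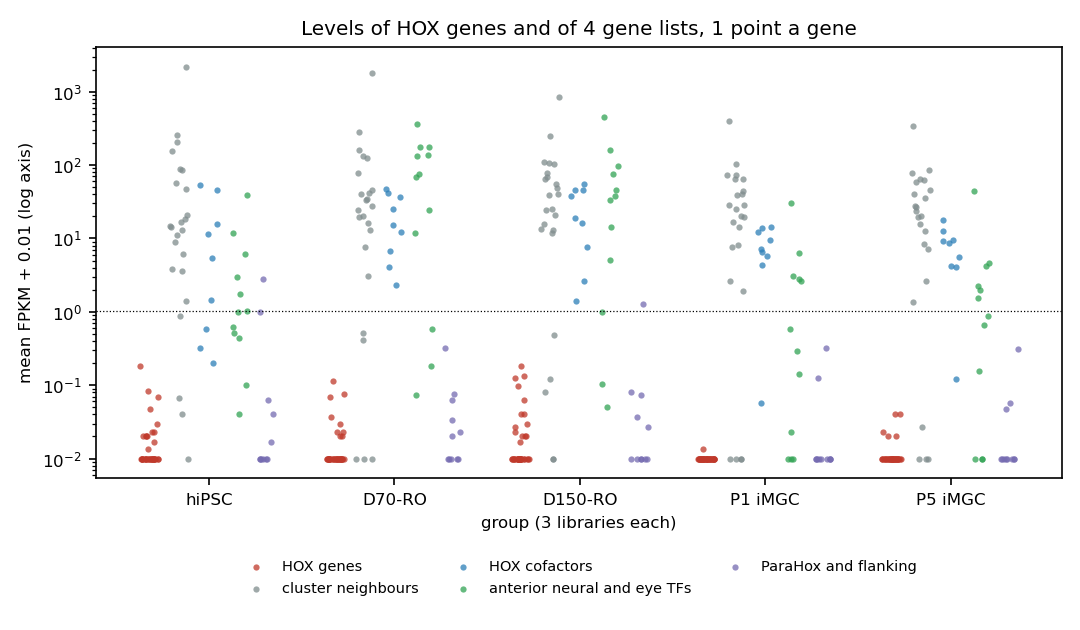
Mean FPKM of 3 libraries plus 0.01, on a log axis, of each HOX gene and of each gene of 4 lists (cluster neighbours, HOX cofactors, anterior neural and eye transcription factors, ParaHox and cluster-flanking homeobox genes) in the 5 groups, with 1 point a gene and a dotted line at 1 FPKM. HOX genes stay under the line in every group, with the highest group mean at 0.173 FPKM, while most neighbours and cofactors lie above it.

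Most transcription factors of the anterior neural and eye list were high in ROs. Of 12 anterior neural and eye genes, 9 had a mean of at least 1 FPKM in each RO group. In D70-ROs against hiPSCs 8 were called higher and 2 lower of 11 tested, and the same numbers held in D150-ROs, with OTX1 and HESX1 the ones called lower. OTX2, which sets the forebrain and midbrain territory and later photoreceptor fate, rose from 39.4 FPKM in hiPSCs to 132 at day 70 and 447 at day 150. RAX, an eye field gene, stood at 176 FPKM in D70-ROs and 76.5 in D150-ROs. In P1 iMGCs against D150-ROs 8 of 10 were called lower and 0 higher. PAX6 was at 30.7 ± 2.3 FPKM in P1 iMGCs, SIX3 at 6.34 and LHX2 at 3.1, while RAX was listed at 0. Of the 12 genes, 5 had a mean of at least 1 FPKM in P1 iMGCs and 6 in P5 iMGCs, against 6 in hiPSCs. Between passages 2 of the 7 tested were called higher in P5 iMGCs and 1 lower. PAX6 was not among those called, at 43.9 ± 2.28 FPKM in P5 iMGCs (log2 fold change 0.53). No HOX gene had a mean above 0.03 FPKM in either iMGC group.

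Upstream regulators of HOX expression in the hindbrain were mixed. The list holds activators together with CYP26A1, CYP26B1 and CYP26C1, which break retinoic acid down, so its calls pool genes of opposite action. RARB, a retinoic acid receptor gene that is itself induced by retinoic acid, went from 0.117 ± 0.0551 FPKM (SD, n = 3) before differentiation to 5.45 ± 0.647 at day 70 and 10.8 ± 0.356 at day 150. RARG went from 45.5 ± 3.56 to 4.68 ± 1.47 and 4.54 ± 0.498. CYP26A1, which breaks retinoic acid down, had 6.19 ± 1.23 FPKM in hiPSCs against 3.31 ± 1.27 at day 70 and 1.19 ± 0.137 at day 150. Against hiPSCs 3 of the 8 tested were called higher and 4 lower at day 70, then 4 and 4 at day 150. In P1 iMGCs against D150-ROs 2 of 8 were called higher and 3 lower. Between passages 2 of the 6 tested were called higher in P5 iMGCs and 0 lower, with RARB going from 2.38 ± 0.0954 to 9.24 ± 0.77 FPKM (log2 fold change 2.07, SE 0.0981, adjusted p = 2.14e-14 by edgeR). EGR2 (Krox20) was at 0.907 FPKM in P1 iMGCs and was not called against D150-ROs.

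ParaHox and flanking homeobox genes, relatives of the HOX clusters used in gut, tail and spinal cord, were low too. Of 11, 1 had a mean of at least 1 FPKM in hiPSCs and in D150-ROs, and 0 in the other groups. That gene was GBX2, of the anterior hindbrain, with 2.83 ± 0.768 FPKM in hiPSCs against 0.0233 at day 70 and 1.27 ± 0.683 at day 150. CDX4, an activator of posterior HOX genes, had 0.69 to 1.19 FPKM in the hiPSC libraries, 1 count in D70-ROs and 0 in all other groups.

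Polycomb and Trithorax genes, which encode the repressors and activators of HOX chromatin, were expressed throughout, with 23 to 26 of 26 at a mean of at least 1 FPKM. The median of the group means was lowest in P5 iMGCs at 7.8 FPKM and highest in D150-ROs at 21.6. The median over all genes was also highest in D150-ROs, at 5.15 FPKM against 2.42 in P5 iMGCs. BMI1, a core part of Polycomb complex PRC1, went from 1.96 FPKM in hiPSCs to 22.4 in D70-ROs and 43.3 in D150-ROs, CBX2 from 53.7 to 20.4 and 5.75, and PHC1 from 269 to 33.3 and 64.2. Against hiPSCs 7 of 26 were called higher and 6 lower at day 70, where 23.2% and 22.5% of all genes were, so these shares were near the background. The numbers were 11 and 6 at day 150, beside 30.3% and 29.7% of all genes. In P1 iMGCs against D150-ROs 0 were called higher and 10 lower, beside 20.5% and 26.0%, among them EZH2, the PRC2 methyltransferase (log2 fold change −1.66, SE 0.0819). Between passages 0 of 26 were called.

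Markers of tissues that do use HOX genes were set beside these counts. Hindbrain and spinal cord markers were low, with LHX9 the only 1 of 6 above 1 FPKM in ROs (2.93 and 15.0), a gene that retinal neurons also use, and LBX1 and TLX3 at no more than 0.103 FPKM in any group. OLIG3, at 4.47 FPKM, was the only one above 1 in hiPSCs. Of the mesenchymal markers 2 of 10 were at 1 FPKM or more in hiPSCs and in D150-ROs and 4 in D70-ROs, TBX5 highest there at 2.09 FPKM. In iMGCs 6 of 10 were, among them COL1A1 at 2000 ± 53.5 FPKM in P1 iMGCs and 2220 ± 126 in P5 iMGCs, LUM at 42.8 and 60.4, COL3A1 at 26.4 and 10.2, and TBX18 at 6.33 and 4.17. DCN was at 2.6 and 0.81 FPKM, and PDGFRA at 0.107 and 0.68 after 6.3 in D150-ROs. Against D150-ROs 6 of 8 tested were called higher in P1 iMGCs and 2 lower. TBX5, a forelimb factor that dorsal retina also uses, and TBX15, of trunk and limb, were at 0 FPKM in P1 iMGCs and at no more than 0.00667 in P5 iMGCs. TWIST1, a mesenchymal factor, was at 2.0 and 3.34 FPKM in these groups, and PRRX1, of limb mesenchyme, at 0.0133 and 1.75. The matrix genes COL1A1 and LUM were thus high in libraries that held 0 to 5 HOX counts each. The part of mesenchymal genes in the HOX counts was not tested. Of the neural crest list 3 of 5 were at 1 FPKM or more in hiPSCs (ETS1 highest at 11.2), 1 in D70-ROs, 3 in D150-ROs (TFAP2A highest at 24.2) and 1 in each iMGC group. Of the mesoderm and endoderm list 1 of 6 was in hiPSCs (MIXL1 at 1.67) and in D150-ROs (EOMES at 1.77), and 0 in the other groups. Of the endothelium and blood and the skeletal muscle lists 0 were in any group. The authors list TFAP2A among amacrine and horizontal cell genes, so its level in ROs does not mark neural crest alone. Whether cells of these types were present, and their part in the HOX counts of hiPSCs and ROs, was not tested. In bulk libraries fewer cells of a type and less RNA per cell cannot be told apart.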

How the data were processed

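Poly(A) RNA-seq values of 15 libraries were used as deposited. The authors used HISAT2 for mapping and StringTie for assembly, and deposited RSEM expected counts, of which 8.21% to 10.1% a library were not whole, and FPKM scaled for transcript length and mapped reads. Versions, build and annotation are not given in the sources used here, nor is whether the batch correction they describe touched these values. All 19684 identifiers were found in GENCODE 29, which gave symbols and positions. A further table held 6 iMGC columns without a passage, which were not used.

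Expected counts were rounded. Tested genes had 10 counts or more in 3 or more libraries of a comparison, and were fitted with edgeR 4.0.16 (quasi-likelihood test, TMM factors, 2 groups at a time, no covariates) in R 4.3.3. Called genes had a Benjamini-Hochberg adjusted p under 0.05 over all genes tested and a fold change of at least 2. CPM and counting intervals used library totals without the TMM factors, so they are on another scale than the edgeR fold changes. Named members were those with at least 10 counts in a library, and others were named after their values were seen. The members and lists were chosen with earlier results of these data known. limma 3.58.1 and DESeq2 1.42.0 were alternatives. The edgeR test was tested on simulated data. Some genes are not reported here.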

Additional observations from a re-analysis of the deposited data

How the results depend on the processing

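At a mean of at least 0.5 or 1 FPKM 0 HOX genes were detected in hiPSCs, where 1 was by counts, and at 0.1 FPKM 1 was detected at day 70 and 3 at day 150. The number of HOX genes called against hiPSCs was 1 in each RO group. With every gene tested it was 2 at day 70 and 4 at day 150, 1 between the RO ages and 2 in P1 iMGCs against D150-ROs, the last 2 from 0. With an FPKM filter of 1, or with limma on log2(FPKM + 1), it was 0 in both RO groups, since 0 members were tested and since HOXB13 changed by −0.23 and −0.22 on that scale. Without one replicate it ranged from 0 to 1 in both RO groups, with 0 for each hiPSC library left out. With the replicate number as a replicate block it was 1, 1, 0, 0 and 0 in the 5 comparisons, as without the block. The deviations of equally numbered replicates correlated between −0.074 and 0.337. Unequally numbered replicates were not compared, so these values cannot tell whether the numbers pair the libraries. Without HOXB8 the summed FPKM of D150-ROs was 0.527 in place of 0.7. Upper-quartile scaling moved calls in 6 list comparisons, by at most 2, to 0 higher and 12 lower of the Polycomb and Trithorax genes in P1 iMGCs. Depth limits all member values.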
